A study of Rattus norvegicus with 43 samples.

Results

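The 3 Period genes Per1, Per2 and Per3 were followed in the kidney cortex of male rats, as the rows of the deposited expression tables that carry these gene names. They are 3 of 32545 genes in the normal salt table and 3 of 34899 genes in the high salt table. Each gene had 1 row in each table, and all 3 passed the filter on low values in both.

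Poly(A)-selected RNA of rat kidney cortex was sequenced as 43 libraries in 8 groups. Rats labelled SSPer1-/- carried an alteration of Per1 on the SS background, a salt-sensitive strain, and were set against SS rats. High salt was 4% NaCl and normal salt 0.4% NaCl, given for 3 weeks, and tissue was taken at 2am, in the active phase, or at 2pm, in the inactive phase. On high salt there were 5 libraries in each group: labelled SSPer1-/- 2am, SS 2am, labelled SSPer1-/- 2pm and SS 2pm. On normal salt there were 5 libraries of labelled SSPer1-/- 2am, 6 of SS 2am, 6 of labelled SSPer1-/- 2pm and 6 of SS 2pm. Which part of Per1 was altered is not stated in the labels, nor is an age, nor whether the libraries of a group came from separate rats. The p-values below therefore measure the spread between these libraries. The cortex is a mixture of cell types, and in such bulk samples fewer cells of a type and less RNA per cell cannot be told apart.

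The Period proteins are the negative arm of the mammalian circadian clock. The transcription factors BMAL1 (encoded by Arntl) and CLOCK bind E-box motifs and switch on Per and Cry genes, and PER and CRY proteins return to the nucleus and repress BMAL1 and CLOCK until casein kinase 1 marks PER for degradation. PER1 and PER2 are regarded as the core of this repression and PER3 as an accessory member, and in mouse kidney PER1 is known for its effect on genes of renal sodium transport. Per1 is also an early target of glucocorticoid and cAMP signalling, and D-box motifs bound by DBP, TEF and HLF add a further input to Period genes.

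In the coordinates of the deposited tables, which name no build, Per1 (ENSRNOG00000007387) lay on chromosome 10 at 55687050 to 55695994 on the plus strand. Per2 (ENSRNOG00000020254) lay on chromosome 9 at 98555169 to 98597359 on the minus strand, and Per3 (ENSRNOG00000018413) on chromosome 5 at 168086998 to 168123395 on the minus strand. The lengths used for FPKM (fragments divided by transcript length in kilobases and by library size) were 4049 bases for Per1, 5783 for Per2 and 4997 for Per3. No other feature of either table overlapped any of the 3 genes.

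Sequences around 2 clock motifs of Per2 are shown because these were the matches found in the windows of the 3 genes. The 250 bases before the start site of each gene in the RefSeq promoter table (GRCr8 build) were searched on both strands for the E-box CACGTG, the E-prime box CACGTT, the D-box TTATGTAA and the cAMP response element TGACGTCA. The Per2 window held 1 D-box, which began 192 bases before the start site, and 1 E-prime box, which began 62 bases before it. In both sequences, read 5′ to 3′ on the minus strand of chromosome 9, capitals mark the motif, the D-box in the first and the E-prime box in the second; the first covers 99497070 to 99497243 and the second 99497038 to 99497067. The second lies inside the outermost annotated start of Per2, at 99497069.
Per2 upstream: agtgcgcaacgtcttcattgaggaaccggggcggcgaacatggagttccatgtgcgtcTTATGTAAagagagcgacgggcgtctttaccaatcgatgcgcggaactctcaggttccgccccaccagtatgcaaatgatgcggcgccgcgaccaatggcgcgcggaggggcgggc
Per2 E-prime box: aacgcgcgcggtCACGTTttccactatgtg
Of 33469 RefSeq promoter windows of 250 bases, 0.828% held the D-box, 4.07% the E-prime box, 5.59% the E-box and 1.59% the cAMP response element. The Per1 and Per3 windows held none of the 4, which says only that these letters were not in those windows. The start site of the Per1 window lay 5374 bases inside the outermost annotated start of the gene, that of Per3 443 bases and that of Per2 76 bases.

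The level per length was lowest for Per3 in 43 of 43 libraries. Per1 stood above Per2 in 19 libraries and below it in the others, and this order differed between the groups. At 2am Per1 was above Per2 in 2 of 5 labelled SSPer1-/- libraries on high salt, and in 0 of 5 SS libraries on high salt, 0 of 5 labelled SSPer1-/- libraries on normal salt and 0 of 6 SS libraries on normal salt. At 2pm the counts were 4 of 5 in labelled SSPer1-/- and 3 of 5 in SS on high salt, and 5 of 6 in each genotype on normal salt. As a share of the summed FPKM of the 3 genes, Per3 held on average 15.9% in labelled SSPer1-/- libraries and 6.14% in SS libraries at 2am on normal salt, and 19.0% in labelled SSPer1-/- libraries and 21.3% in SS libraries at 2pm. These levels rested on 343 to 3392 recovered fragments per library for Per1, 249 to 4261 for Per2 and 105 to 1729 for Per3.

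**Figure D1:**
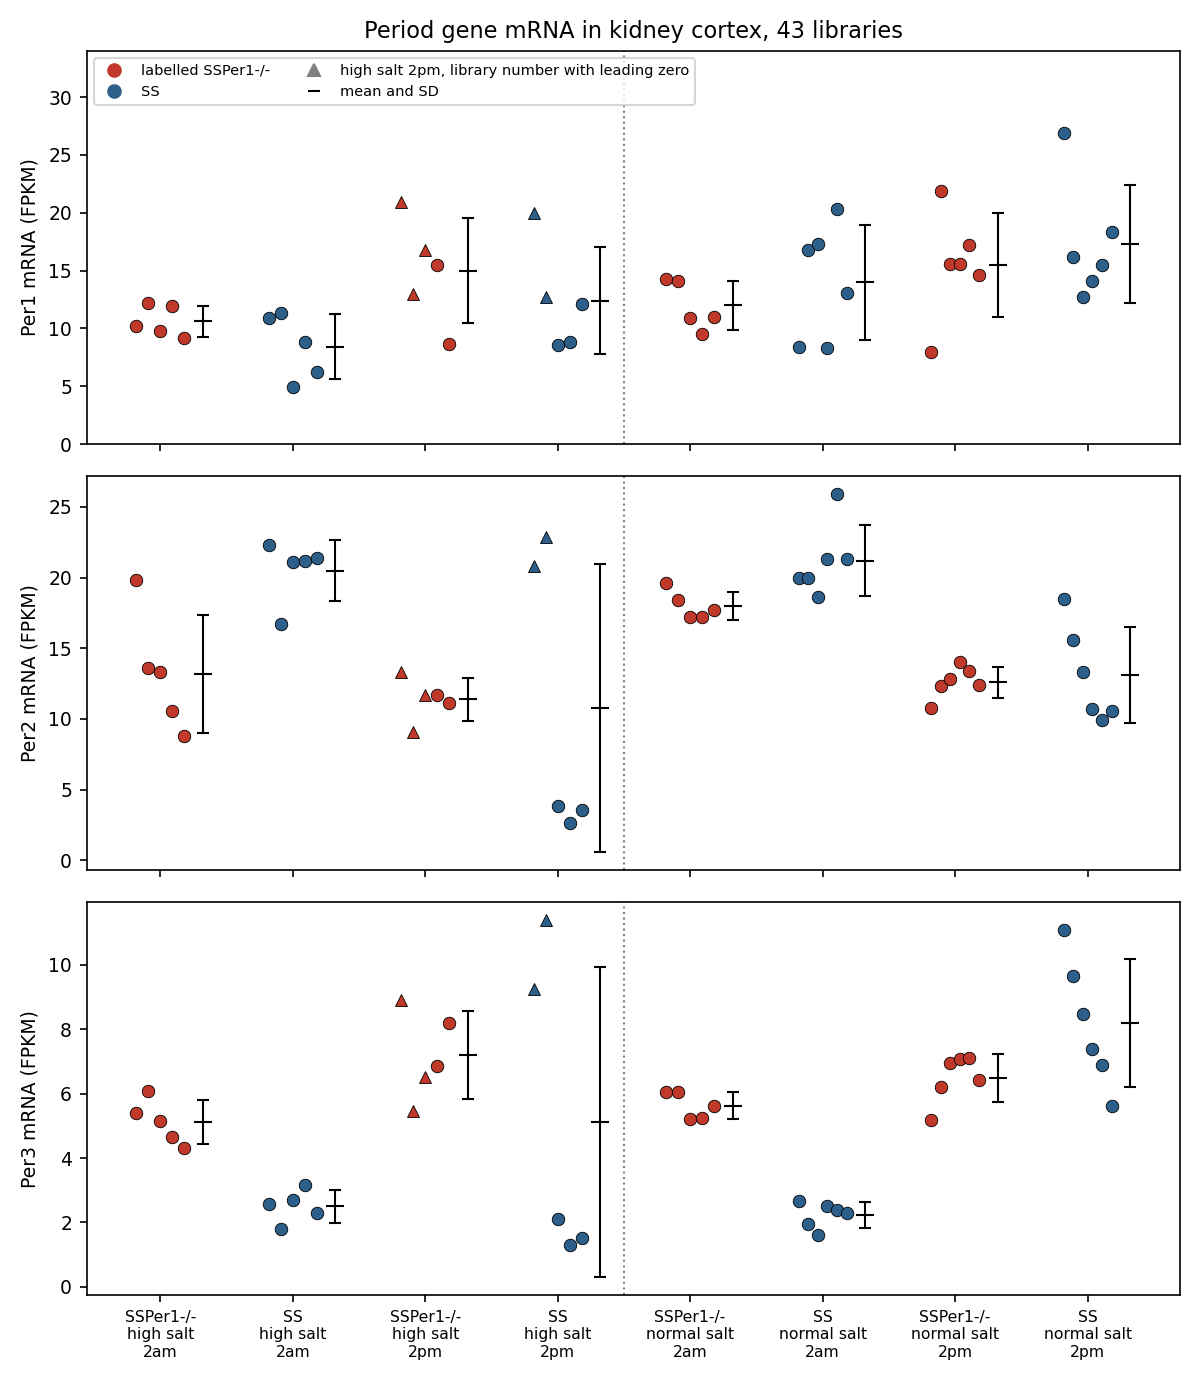
FPKM of Per1, Per2 and Per3 (vertical axes) in each of the 43 libraries, by group (horizontal axis), with the mean and SD of each group; labelled SSPer1-/- in red, SS in blue. The Per3 libraries of SS rats at 2am lie below all labelled SSPer1-/- 2am libraries on both diets, and the SS high salt 2pm libraries fall into 2 sets for Per2 and Per3.

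Per1, the gene named in the genotype label, did not differ between labelled SSPer1-/- and SS beyond the spread of the libraries. At 2am on high salt these libraries held 10.2, 12.2, 9.76, 11.9 and 9.13 FPKM, and SS libraries 10.9, 11.3, 4.98, 8.85 and 6.21. At 2pm on high salt the values were 20.9, 13.0, 16.8, 15.5 and 8.64 FPKM in labelled SSPer1-/- and 20, 12.7, 8.57, 8.83 and 12.1 in SS. The genotypes overlapped at both times, whereas 9.38% of genes had libraries that did not overlap at 2am and 13.8% at 2pm.
On normal salt at 2am the labelled SSPer1-/- libraries held 14.3, 14.1, 10.9, 9.5 and 11.0 FPKM of Per1, and the 6 SS libraries 8.29 at the lowest, 14.9 at the median and 20.3 at the highest. At 2pm the lowest, median and highest were 7.94, 15.6 and 21.9 FPKM in labelled SSPer1-/- and 12.7, 15.8 and 26.9 in SS. These overlapped too (9.97% of genes did not at 2am and 0.461% at 2pm), and the label is therefore used below only as a label: FPKM over a whole gene does not show a small deletion or a frameshift.

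Per1 passed in 0 of 14 contrasts of genotype, time or their interactions, in limma on log2(FPKM + 1) with Benjamini-Hochberg adjusted p below 0.05 over all genes tested. By unadjusted p below 0.05 it passed in 1, and with voom on the recovered fragments in 0. The 95% intervals of the genotype difference (labelled SSPer1-/- minus SS, log2) ran from -0.14 to 0.84 at 2am and from -0.24 to 0.75 at 2pm on high salt, and from -0.64 to 0.33 at 2am and from -0.63 to 0.30 at 2pm on normal salt. Each leaves room for a difference in either direction. The 2am minus 2pm difference had a negative estimate in all 4 pairs of groups: -0.41 ± 0.24 (SE) in labelled SSPer1-/- on high salt (limma adjusted p = 0.402), -0.51 ± 0.24 in SS on high salt (limma adjusted p = 0.189), -0.31 ± 0.23 in labelled SSPer1-/- on normal salt (limma adjusted p = 0.521) and -0.31 ± 0.22 in SS on normal salt (limma adjusted p = 0.302). The contrast that passed without adjustment was that of SS on high salt (unadjusted p of limma = 0.0456). Per1 varied more between libraries of a group than most genes did. Its residual SD was 0.41 (log2) on normal salt, above that of 91.3% of genes tested, and 0.40 on high salt, above 84.2%, against a median over all genes of 0.17 and 0.21.

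Ordered by mean FPKM, Per1 was highest in SS normal salt 2pm at 17.3 ± 5.08 (SD, n = 6). It was followed by labelled SSPer1-/- 2pm on normal salt (15.5 ± 4.51), labelled SSPer1-/- 2pm on high salt (15.0 ± 4.56), SS 2am on normal salt (14.0 ± 4.97), SS 2pm on high salt (12.4 ± 4.6), labelled SSPer1-/- 2am on normal salt (12 ± 2.13), labelled SSPer1-/- 2am on high salt (10.6 ± 1.34) and SS 2am on high salt (8.43 ± 2.79). The library ranges of all neighbours in this order overlapped. Levels on the 2 diets come from tables made separately, so the order across diets is a description.

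Per2, a core repressor, passed in 2 of 14 contrasts (3 by unadjusted p below 0.05 and 3 with voom). It was higher at 2am than at 2pm on normal salt in both genotypes. In labelled SSPer1-/- rats the 2am libraries held 19.6, 18.4, 17.2, 17.2 and 17.7 FPKM, and the 6 libraries of 2pm 10.8 at the lowest, 12.6 at the median and 14.0 at the highest. In SS rats the lowest, median and highest were 18.6, 20.6 and 25.9 FPKM at 2am and 9.94, 12 and 18.5 at 2pm. No 2am library overlapped a 2pm library in either genotype, which held for 6.61% of all genes tested in labelled SSPer1-/- and 7.79% in SS; in SS the gap was narrow, at 18.6 against 18.5 FPKM.
The 2am mean was 1.43 times the 2pm mean in labelled SSPer1-/- (log2 difference 0.49 ± 0.12 SE, limma adjusted p = 0.0247) and 1.61 times in SS (0.68 ± 0.11, limma adjusted p = 0.000267). Over all genes, 3.11% passed in labelled SSPer1-/- and 26.3% in SS. The genotype by time interaction was -0.19 ± 0.16 (95% interval -0.53 to 0.14, limma adjusted p = 0.491), so the time difference of Per2 was not shown to differ between genotypes. The call in labelled SSPer1-/- was lost in 5 of 11 fits that each left out 1 library: 2am replicate 1 (0.46, adjusted p = 0.068), 2am replicate 2 (0.48, adjusted p = 0.0678), 2am replicate 3 (0.50, adjusted p = 0.0502), 2pm replicate 1 (0.44, adjusted p = 0.0608) and 2pm replicate 6 (0.48, adjusted p = 0.0552).

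Between genotypes Per2 passed in none of the 4 limma comparisons. On normal salt the difference, labelled SSPer1-/- minus SS, was -0.22 ± 0.12 at 2am (limma adjusted p = 0.321) and -0.02 ± 0.11 at 2pm (limma adjusted p = 0.933), where 0.372% of genes passed. On high salt at 2am the labelled SSPer1-/- libraries held 19.8, 13.6, 13.3, 10.6 and 8.83 FPKM and SS libraries 22.3, 16.7, 21.1, 21.2 and 21.4. In that comparison 4 of 5 labelled SSPer1-/- libraries lay below all SS libraries, and replicate 1 lay among them. The difference was -0.64 ± 0.41 (limma adjusted p = 0.363) with the spread of all 4 high salt groups, and the same -0.64 ± 0.17 with that of these 2 groups alone (limma adjusted p = 0.03). Per2 had a residual SD of 0.70 (log2) on high salt, above 95.9% of genes, and of 0.20 on normal salt, above 64.3%.

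Per2 means were highest in the 2am groups: SS on normal salt 21.2 ± 2.50 FPKM (SD, n = 6), SS on high salt 20.5 ± 2.17 (n = 5), labelled SSPer1-/- on normal salt 18 ± 1.01 (n = 5) and labelled SSPer1-/- on high salt 13.2 ± 4.16 (n = 5). The 2pm means were 13.1 ± 3.40 in SS on normal salt, 12.6 ± 1.11 in labelled SSPer1-/- on normal salt, 11.4 ± 1.52 in labelled SSPer1-/- on high salt and 10.8 ± 10.2 in SS on high salt. Each group's range overlapped that of its neighbour in this order.

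Per3, the accessory member, passed in 4 of 14 contrasts (8 by unadjusted p below 0.05 and 4 with voom). In SS rats on normal salt it was lower at 2am than at 2pm, the opposite direction to Per2, and in rats labelled SSPer1-/- it did not pass between the times. The labelled SSPer1-/- libraries of 2am held 6.04, 6.06, 5.20, 5.24 and 5.62 FPKM, and those of 2pm 5.17 at the lowest, 6.68 at the median and 7.12 at the highest. In SS the lowest, median and highest were 1.60, 2.35 and 2.66 FPKM at 2am and 5.63, 7.94 and 11.1 at 2pm. The times overlapped in labelled SSPer1-/- and were far apart in SS.
In labelled SSPer1-/- the 2am minus 2pm log2 difference was -0.17 ± 0.12 (SE, 95% interval -0.42 to 0.08, limma adjusted p = 0.486). In SS it was -1.49 ± 0.12 (limma adjusted p = 1.04e-08), and the 2pm mean was 3.67 times the 2am mean. The genotype by time interaction was 1.32 ± 0.17 (95% interval 0.97 to 1.66, limma adjusted p = 0.00021), in a test that 2.81% of genes passed. It lay between 1.23 and 1.41 in all 23 fits that each left out 1 library.

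The genotypes differed in Per3 at 2am on normal salt, where all 5 labelled SSPer1-/- libraries lay above all 6 SS libraries, as in 9.97% of genes in either direction. The labelled SSPer1-/- mean was 2.52 times the SS mean (log2 difference 1.04 ± 0.12, limma adjusted p = 5.79e-05), and 4.18% of genes passed in this comparison. At 2pm on normal salt the difference was -0.27 ± 0.12 (limma adjusted p = 0.287, unadjusted p = 0.0266). On high salt at 2am the labelled SSPer1-/- libraries held 5.39, 6.09, 5.15, 4.67 and 4.30 FPKM, and SS libraries 2.56, 1.79, 2.69, 3.17 and 2.28. Here too no library of one genotype overlapped the other, as in 9.38% of genes, and the labelled SSPer1-/- mean was 2.05 times the SS mean. The log2 difference of 0.81 missed the threshold with the spread of all 4 high salt groups (SE 0.36, limma adjusted p = 0.17) and passed with that of these 2 groups alone (SE 0.12, limma adjusted p = 0.00737). Of the 2am high salt genes 8.95% passed in the fit of all 4 groups. Per3 had a residual SD of 0.61 (log2) on high salt, above 93.6% of genes, and of 0.21 on normal salt, above 65.7%.

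Macrophage markers also had libraries that did not overlap between genotypes at 2am. The summed FPKM of Cd68, Csf1r and C1qb (3 of 3 found) was 58.2 to 75.3 in labelled SSPer1-/- and 34.3 to 51.7 in SS on normal salt, and 65.1 to 87.3 in labelled SSPer1-/- and 30 to 57.3 in SS on high salt. At 2pm this sum overlapped on normal salt. On high salt at 2pm it did not, at 71.0 to 104 in labelled SSPer1-/- and 44.5 to 54.7 in SS, while Per3 overlapped there. The summed proximal tubule markers (7 of 7 found) did not overlap either on normal salt, at 3010 to 3640 in labelled SSPer1-/- and 3790 to 4600 in SS, and overlapped on high salt, at 2420 to 3220 in labelled SSPer1-/- and 3050 to 4670 in SS. The other 8 marker lists overlapped between genotypes at 2am on both diets. The part of these markers in the Per3 result was not tested. Outside high salt 2pm the library numbers of each group formed a range of their own, so the range and the group cannot be told apart. The SS normal salt 2pm libraries carry other letters in their names. Numbers were skipped within SS normal salt 2pm, labelled SSPer1-/- high salt 2am and SS high salt 2am. In SS high salt 2am the widest gap lay between replicates 2 and 3, and Per1 was highest in replicates 1 and 2. The part of that gap was not tested.

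**Figure D2:**
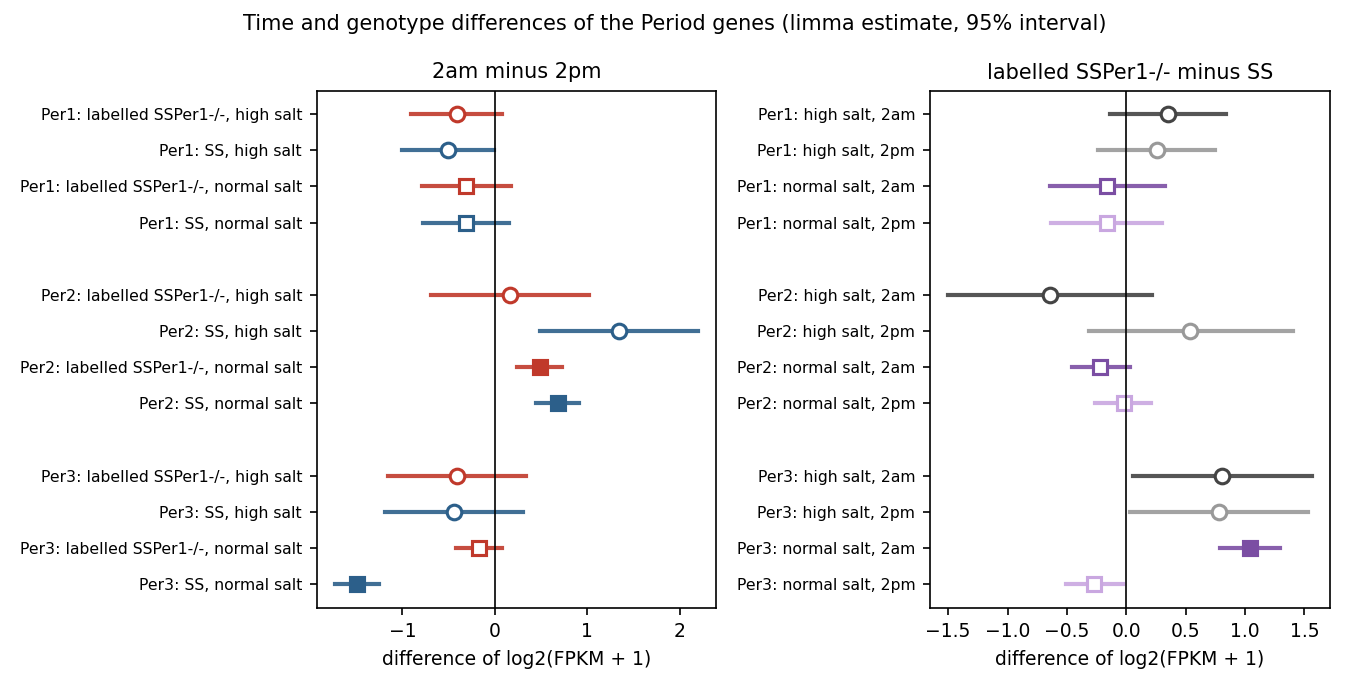
Log2 differences of Per1, Per2 and Per3 with 95% intervals (horizontal axis), 2am minus 2pm on the left and labelled SSPer1-/- minus SS on the right; circles are high salt, squares normal salt, and filled markers passed at limma adjusted p below 0.05. On normal salt the Per3 time difference is -0.17 in labelled SSPer1-/- and -1.49 in SS, while the Per2 estimates are 0.49 in labelled SSPer1-/- and 0.68 in SS.

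By mean FPKM, Per3 was highest in SS normal salt 2pm at 8.19 ± 1.98 (SD, n = 6), then in labelled SSPer1-/- 2pm on high salt (7.19 ± 1.37, n = 5) and on normal salt (6.49 ± 0.743, n = 6). The labelled SSPer1-/- 2am groups followed at 5.63 ± 0.414 on normal salt and 5.12 ± 0.686 on high salt, with SS high salt 2pm at 5.12 ± 4.83. The SS 2am groups were lowest, at 2.50 ± 0.510 on high salt and 2.23 ± 0.394 on normal salt, and all neighbours in the order overlapped.

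The SS high salt 2pm group did not behave as 1 group for Per2 and Per3. The labelled SSPer1-/- libraries of the same diet and time did not divide. They held 13.3, 9.07 and 11.7 FPKM of Per2 in libraries whose number has a leading zero and 11.7 and 11.1 in those without, and 8.90, 5.45 and 6.53 FPKM of Per3 with a leading zero and 6.86 and 8.19 without.
The SS replicates 1 and 2, with a leading zero, held 20.8 and 22.9 FPKM of Per2 and 9.25 and 11.4 of Per3. The SS replicates 3, 4 and 5, without one, held 3.87, 2.66 and 3.59 FPKM of Per2 and 2.12, 1.3 and 1.53 of Per3. The highest of these 5 libraries was 8.62 times the lowest for Per2 and 8.81 times for Per3, against 2.33 times for Per1. For both genes all 5 labelled SSPer1-/- libraries lay between the 2 sets of SS libraries.

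Other clock genes divided the same 5 SS libraries. In the labelled SSPer1-/- libraries Arntl, Dbp, Cry1, Ciart and Nr1d1 all overlapped between the number series, as with Arntl at 3.14 to 4.11 FPKM with a leading zero and 3.00 to 3.77 without.
Arntl, which encodes BMAL1, was in contrast 0.531 to 1.16 FPKM in the SS libraries with a leading zero and 9.27 to 12.5 in those without. Dbp, a D-box factor and clock output, was 137 to 196 FPKM with a leading zero and 8.13 to 33.6 without. Cry1, the partner of PER in repression, was 6.01 to 6.52 with a leading zero and 1.27 to 2.35 without, and Ciart, a further repressor, 3.91 to 5.68 and 0.0711 to 0.315. Nr1d1, which encodes REV-ERB alpha, was 30.2 to 33.0 FPKM with a leading zero and 13.4 to 31.5 without, so its ranges overlapped. For comparison, SS libraries on normal salt held 16.5 to 19.0 FPKM of Arntl at 2am and 0.799 to 2.94 at 2pm. The SS high salt 2pm libraries without a leading zero were lower in Per2 than any other library of the series.

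**Figure D3:**
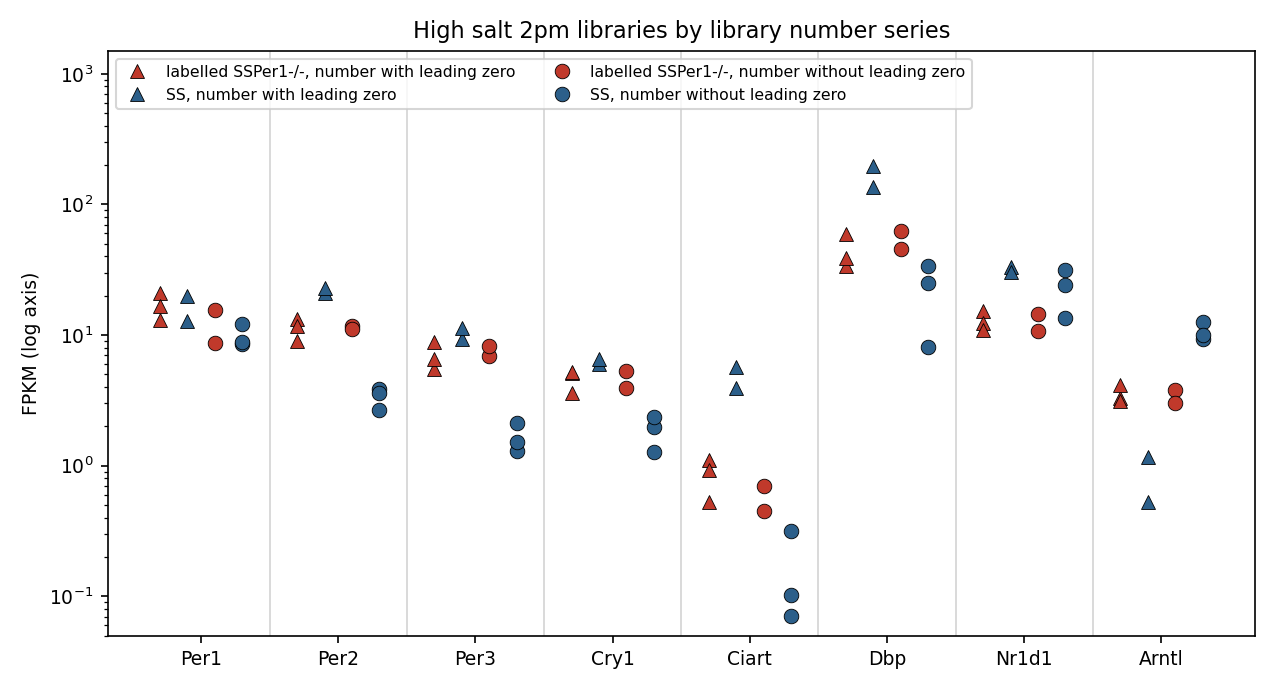
FPKM on a log axis (vertical) of the Period genes and 5 other clock genes in the 10 high salt 2pm libraries, by genotype and library number series (triangles with a leading zero, circles without). The SS libraries of the 2 series are apart for Per2, Per3, Cry1, Ciart, Dbp and Arntl, and the labelled SSPer1-/- libraries lie between them for Per2, Per3, Cry1, Ciart and Arntl.

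Tissue markers moved with the number series in part. The summed proximal tubule markers were 1590 to 3250 FPKM in the SS libraries without a leading zero and 3630 to 4480 in those with. The labelled SSPer1-/- libraries went the other way, at 2260 and 2050 FPKM without a leading zero and 1830, 1310 and 1720 with. Adrenal cortex markers (2 of 3 found), at low levels, were 0.807 to 1.15 FPKM in the SS libraries without a leading zero and 0.0208 to 0.176 in those with. The labelled SSPer1-/- libraries held 0.227 and 0.11 FPKM of them without a leading zero and 0.63, 0.19 and 0.0508 with. The collecting duct markers Aqp2, Aqp3 and Scnn1g (3 of 3 found) were 219 to 356 FPKM in the SS libraries without a leading zero and 159 to 176 in those with. In the labelled SSPer1-/- libraries they were 153 and 255 FPKM without a leading zero and 201, 159 and 149 with. SS replicate 4 stood apart, with 31.3 FPKM of the inner medulla markers Slc14a2 and Aqp4 against 0.689 to 2.77 in the other 9 libraries of that diet and time, and with 12.8 FPKM of distal convoluted tubule and 12.5 of podocyte markers. Replicates 3 and 5, also low in Per2 and Per3, held 1.49 and 2.35 FPKM of inner medulla markers. The part of these markers in the division was not tested.

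The Per2 and Per3 differences that use the SS high salt 2pm group were computed with all its libraries and with each set. The 2 sets follow the number series but were chosen after seeing the data. Here and below, p-values with 1 set or 1 series alone are therefore descriptions and no independent test. For other genes values are given with all its libraries only. With all 5 libraries the genotype difference at high salt 2pm was 0.54 ± 0.41 for Per2 (limma adjusted p = 0.344) and 0.78 ± 0.36 for Per3 (limma adjusted p = 0.108), in a comparison that 29.8% of genes passed. Within the series with a leading zero it was -0.90 for Per2 (limma adjusted p = 0.011) and -0.53 for Per3 (limma adjusted p = 0.0478). Within the series without, it was 1.51 for Per2 (limma adjusted p = 0.00511) and 1.70 for Per3 (limma adjusted p = 0.000715). The sign of both genes was thus opposite in the 2 series, and that of Per1 was not, at 0.05 (limma adjusted p = 0.909) and 0.23 (limma adjusted p = 0.638). The Per3 call appeared when SS replicate 1 (1.06, limma adjusted p = 0.0233) or SS replicate 2 (1.13, limma adjusted p = 0.0119) was left out.

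The time difference in SS on high salt changed likewise. With all libraries it was 1.34 ± 0.41 for Per2 (limma adjusted p = 0.0571) and -0.44 ± 0.36 for Per3 (limma adjusted p = 0.466), where 5.44% of genes passed. Set against only the 2pm libraries with a leading zero it was -0.09 for Per2 (limma adjusted p = 0.902) and -1.70 for Per3 (limma adjusted p = 3.15e-05). Set against only those without, it was 2.30 for Per2 (limma adjusted p = 1.85e-06) and 0.40 for Per3 (limma adjusted p = 0.0629). Both sets were chosen after seeing the data, so these p-values are descriptions. Leaving out 1 library made the Per2 difference pass for 2pm replicate 1 (1.69, limma adjusted p = 0.00771) and for 2pm replicate 2 (1.72, limma adjusted p = 0.0127).

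In labelled SSPer1-/- on high salt, where no such division was seen, no Period gene passed between 2am and 2pm. The times overlapped for all 3 genes, as they did in SS on high salt; they did not overlap for 7.21% of all genes in labelled SSPer1-/- and 4.45% in SS. The differences were 0.16 ± 0.41 for Per2 (limma adjusted p = 0.882) and -0.41 ± 0.36 for Per3 (limma adjusted p = 0.605), and 0.262% of genes passed. These SEs use the spread of all 4 high salt groups, the divided SS 2pm group included, so a smaller time difference could be missed. The genotype by time interaction on high salt was -1.18 ± 0.58 for Per2 (limma adjusted p = 0.382) and 0.03 ± 0.51 for Per3 (limma adjusted p = 0.989), where 0.101% of genes passed. For Per3 it was 1.29 (limma adjusted p = 0.00725) with the leading-zero SS 2pm libraries alone and -0.81 (limma adjusted p = 0.0369) with the others alone. For Per2 the same settings gave 0.25 (limma adjusted p = 0.655) and -2.14 (limma adjusted p = 0.000552). Both settings were chosen after seeing the data, so their p-values are descriptions.

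Between the diets no Period gene had libraries that stayed apart in any of the 4 pairs of groups with equal genotype and time. Over all genes compared, the share that stayed apart was 20.2% in labelled SSPer1-/- 2am, 22.4% in labelled SSPer1-/- 2pm, 5.89% in SS 2am and 6.40% in SS 2pm. The widest gap in means for Per1 was in SS at 2am, with 8.43 FPKM on high salt and 14.0 on normal salt. For Per2 it was in labelled SSPer1-/- at 2am, with 13.2 FPKM on high salt and 18 on normal salt. There 4 of 5 high salt libraries lay below the lowest normal salt library at 17.2 FPKM. For Per3 it was in SS at 2pm, with 5.12 FPKM on high salt, in the divided group, and 8.19 on normal salt. Each diet has its own table, so diet and table cannot be told apart, and levels were not tested.

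In the joint fit of both tables, Per3 passed in the genotype by diet interaction at 2pm with 1.06 ± 0.36 (limma adjusted p = 0.0341), in a test that 22.0% of genes passed. That call rests on the divided SS group: with its leading-zero libraries alone the value was -0.21 (limma adjusted p = 0.481), and with the others alone 1.90 (limma adjusted p = 5.09e-08). These sets were chosen after seeing the data, so the 2 p-values are descriptions and no independent test. The call with all libraries was less firm in other ways. It was also lost in 8 of 22 fits without 1 library, namely labelled SSPer1-/- normal salt replicate 1 (1), SS normal salt replicates 1 (0.97) and 2 (1.01), labelled SSPer1-/- high salt replicates 1 (0.98) and 5 (1.01), and SS high salt replicates 3 (0.91), 4 (0.80) and 5 (0.83), with limma adjusted p between 0.0537 and 0.0809. The time by diet interaction of Per3 in SS was 1.05 ± 0.36 (limma adjusted p = 0.225) and passed without SS high salt 2pm replicate 2 (1.40, limma adjusted p = 0.0489), and 0.0709% of all genes passed. In labelled SSPer1-/- it was -0.24 ± 0.37 (limma adjusted p = 0.761), where 2.94% passed. All SEs of the joint fit take in the spread of the divided SS group, also in contrasts that do not compare it. At 2am the genotype by diet interaction was 0.51 ± 0.34 for Per1 (limma adjusted p = 0.92), -0.42 ± 0.42 for Per2 (limma adjusted p = 0.962) and -0.23 ± 0.37 for Per3 (limma adjusted p = 0.978), and 0 of 14102 genes passed in limma (0%), with 821 at an unadjusted p below 0.05 and 0 with voom.

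Per2 and Per3 varied together between libraries of the same group, although their means differed by time in opposite directions in SS on normal salt. Deviations from the group mean of log2(FPKM + 1) were correlated, with permutations within groups and Benjamini-Hochberg adjustment over the 3 pairs of genes. On normal salt (n = 23 libraries) Pearson's r was 0.85 (permutation p = 0.0001, adjusted p = 0.0003) and Spearman's rho 0.79 (permutation p = 0.00032). On high salt without the divided SS 2pm group (n = 15) r was 0.63 (permutation p = 0.00553, adjusted p = 0.0166) and rho 0.62 (permutation p = 0.0213). This high salt set was chosen after seeing the data, so its p-values here and below are descriptions. Without the 2 libraries farthest from the median of Per2, r was 0.79 in each of these 2 sets.
Per1 followed them less closely. Over all 43 libraries, the divided group included, its r with Per2 was 0.38 (permutation p = 0.00964, adjusted p = 0.0145) and rho 0.42 (permutation p = 0.00915). That call was lost in 1 of 43 fits without 1 library, and r was 0.40 without the 2 libraries farthest in Per1. With Per3 the r of Per1 over all libraries was 0.29 (permutation p = 0.127, adjusted p = 0.127). On normal salt the r of Per1 with Per2 was 0.46 (permutation p = 0.0284, adjusted p = 0.0426) and rho 0.40 (permutation p = 0.0784). There r was 0.14 without the 2 libraries farthest in Per1, so the relation on normal salt rests on those libraries. With Per3 its r was 0.16 on normal salt (permutation p = 0.503, adjusted p = 0.503; rho 0.07, permutation p = 0.774). On high salt without SS 2pm, r was 0.08 with Per2 (permutation p = 0.7, adjusted p = 0.961; rho 0.35, permutation p = 0.199) and -0.02 with Per3 (permutation p = 0.961, adjusted p = 0.961; rho 0.07, permutation p = 0.827). Without the 2 farthest libraries r of Per1 and Per3 was -0.36 on normal salt and 0.36 on high salt, and that of Per1 and Per2 was 0.15 on high salt.

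**Figure D4:**
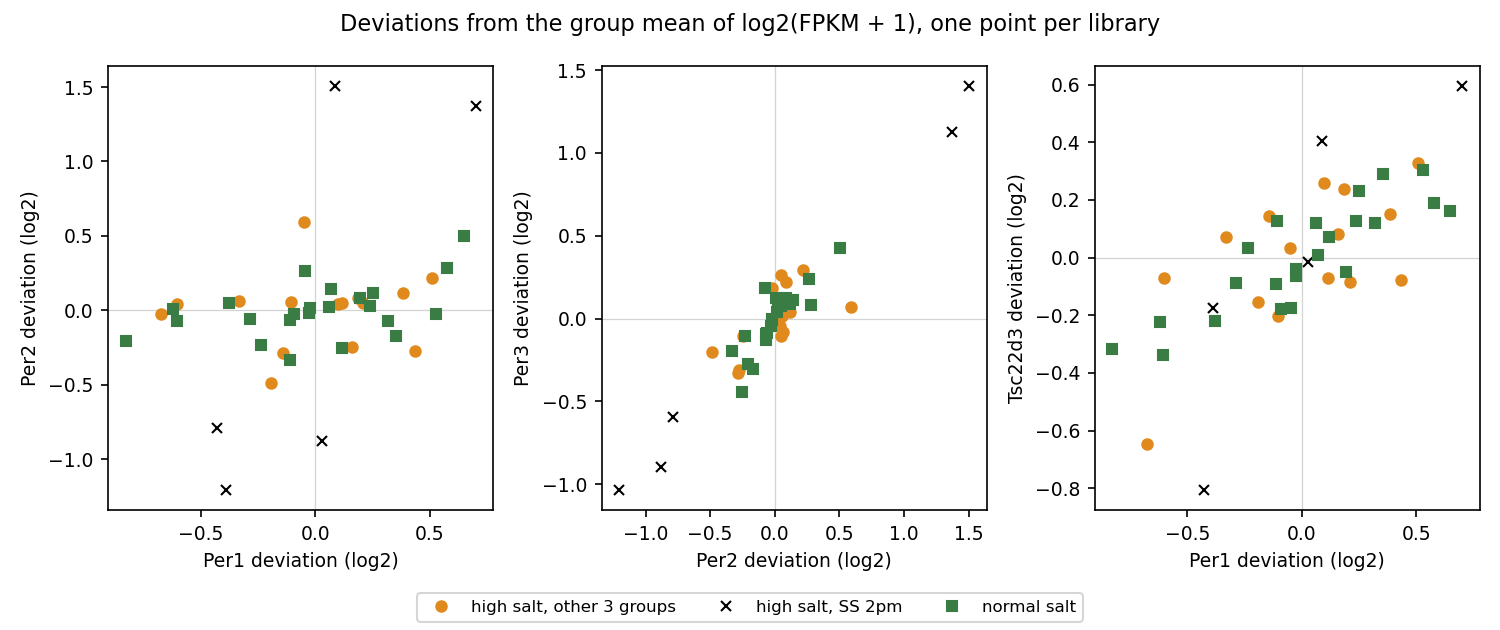
Deviation of each library from its group mean (log2): Per2 against Per1 (left), Per3 against Per2 (middle) and the glucocorticoid-induced gene Tsc22d3 against Per1 (right); green squares are normal salt, orange circles high salt and crosses the SS high salt 2pm group. Per2 and Per3 deviations lie along a line, with the SS high salt 2pm libraries at both ends.

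The deviations of Per1 were also set against those of glucocorticoid response genes. All 8 genes of that list (Tsc22d3, Fkbp5, Sgk1, Klf9, Zbtb16, Dusp1, Nfkbia and Errfi1) had r above 0 with Per1 on normal salt (n = 23 libraries, median 0.45, range 0.08 to 0.86) and on high salt without SS 2pm (n = 15, median 0.43, range 0.11 to 0.70). The highest on normal salt was Tsc22d3, which encodes GILZ, at 0.86, and Sgk1, a kinase that raises sodium channel activity, had 0.69. For 8 cAMP and immediate early genes (such as Fos and Junb) r with Per1 was also above 0 in 8 of 8 on normal salt (median 0.30, range 0.03 to 0.35), and in 6 of 8 on high salt without SS 2pm (median 0.13, range -0.44 to 0.50). The median r of the glucocorticoid list with Per2 was 0.16 on normal salt and 0.05 on high salt without SS 2pm, and with Per3 0.03 and 0.00. The median over all genes was between -0.02 and 0.01 for each Period gene. These r values are descriptions over libraries of the same 2 tables, and no test of them was made. The lists were chosen with earlier results of these data known, so the counts of genes above 0 are descriptions too. The group means of Tsc22d3 and Sgk1 did not follow their r values. In SS on normal salt, 2am minus 2pm was 1.09 ± 0.11 for Tsc22d3 (limma adjusted p = 6.52e-07) and 1.63 ± 0.22 for Sgk1 (limma adjusted p = 2.53e-05). For Per1 it was -0.31 ± 0.22 (limma adjusted p = 0.302). In that comparison 2 of 8 genes of the glucocorticoid list passed, and 26.3% of all genes. The median difference of the list was 0.06. Dusp1 (-0.80 ± 0.37), Errfi1 (-0.23 ± 0.22) and Nfkbia (-0.05 ± 0.15) had negative estimates, as Per1 did. Fkbp5 (0.01 ± 0.21), Klf9 (0.12 ± 0.15) and Zbtb16 (0.40 ± 0.31) had positive ones.

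The genes whose level followed each Period gene most closely over the 43 libraries, after centring within each table, were Rgcc (Pearson's r 0.65), Plk3 (0.65) and Grasp (0.63) for Per1. For Per2 they were Cry2, a cryptochrome repressor (0.88), Add1, the cytoskeletal protein adducin (0.86), and Fmo2, a flavin monooxygenase (0.86). For Per3 they were Nr1d2, which encodes REV-ERB beta (0.82), Epm2a, the glycogen phosphatase laforin (0.80), and Dbp (0.79). These values include the spread of the divided SS high salt 2pm group, and this measure was not computed without it. Of deviations from the group means, the closest were Tsc22d3 (0.74), Zfp354a (0.65) and Errfi1 (0.61) for Per1, Wee1 (0.91), Tef (0.91) and Ciart (0.90) for Per2, and Tef (0.89), Wee1 (0.88) and Fmo2 (0.87) for Per3. Wee1 encodes a cell cycle kinase. Without the SS high salt 2pm group (n = 38) Tsc22d3 stayed first for Per1 (0.75), while Vegfa (0.75) was first for Per2 and Shank3 (0.77) for Per3.

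The other genes of the clock loop were counted from 4 lists with 25 genes, of which 21 met the filter in the normal salt table and 20 in the high salt table. Between 2am and 2pm on normal salt 3 rose and 3 fell at 2am in labelled SSPer1-/-, where 3.11% of all genes passed. In SS 6 rose and 7 fell (median log2 difference 0.04, and 0.00 over all genes), where 26.3% passed. The interaction of genotype and time on normal salt passed for 10 of 21, with 5 in each direction (median -0.08, and -0.01 over all genes), against 2.81% of all genes. Of the Period genes, Per3 passed and Per1 and Per2 did not.
Among the activators of E-boxes, all 3 tested passed in that interaction. They were Arntl (-1.97 ± 0.21, limma adjusted p = 1.33e-05), Clock (-0.77 ± 0.15, limma adjusted p = 0.0109) and Npas2 (-1.10 ± 0.19, limma adjusted p = 0.00503). Of 8 partners of PER and genes of PER turnover, Cry1 passed (-0.78 ± 0.16, limma adjusted p = 0.0137). Of 7 other repressors and loop genes, 4 passed: Nr1d1 (2.35 ± 0.15), Nr1d2 (1.39 ± 0.12) and Ciart (1.60 ± 0.22) upward and Nfil3 (-1.02 ± 0.19) downward. Of 3 D-box factors, Dbp (1.72 ± 0.19) and Tef (0.55 ± 0.12) passed. Per3 thus had an interaction of the sign of Nr1d1, Nr1d2, Dbp, Tef and Ciart, and these 5 genes and Per3 were all lower at 2am than at 2pm in SS on normal salt.

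In the list with the cryptochromes, Cry1 (1.23 ± 0.12) was the 1 gene of 8 that passed between 2am and 2pm in labelled SSPer1-/- on normal salt. In SS it passed with Cry2 (0.28 ± 0.09) and Timeless (-0.25 ± 0.08). The casein kinase genes Csnk1d and Csnk1e did not pass in either genotype. Csnk1e passed between genotypes at high salt 2pm (0.38 ± 0.09, limma adjusted p = 0.00326), a comparison with the divided SS group. It also passed in the genotype by diet interaction at 2pm (0.51 ± 0.11, limma adjusted p = 0.00183), which uses that group. The time by diet interaction of Csnk1e in labelled SSPer1-/-, which compares no SS libraries, passed too (-0.42 ± 0.11, limma adjusted p = 0.0383). On high salt the clock lists had 2 genes higher and 3 lower of 20 between genotypes at 2am, where Nr1d1 (1.45 ± 0.19) and Nr1d2 (1.36 ± 0.23) were higher and Clock (-0.49 ± 0.11), Npas2 (-0.87 ± 0.21) and Cry1 (-0.89 ± 0.25) lower; 8.95% of all genes passed there. In labelled SSPer1-/- 0 of 20 passed between 2am and 2pm on high salt in limma, with 6 at an unadjusted p below 0.05 and 1 with voom, and 0.262% of all genes passed.

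Of 10 renal genes reported under PER1 control in mouse kidney, 1 passed between genotypes at 2am on normal salt, where 4.18% of all genes did. It was Fxyd5, a regulator of the sodium pump, at 0.63 ± 0.13 (limma adjusted p = 0.0146). At 2am on high salt Fxyd5 (0.75 ± 0.14, limma adjusted p = 0.0056) and Edn1, which encodes endothelin-1 (0.91 ± 0.19, limma adjusted p = 0.00787), were higher in labelled SSPer1-/-, 2 of 10 where 8.95% of all genes passed. At 2pm on normal salt 0 of 10 passed in limma, with 1 at an unadjusted p below 0.05 and 0 with voom, and 0.372% of all genes. At 2pm on high salt, in the comparison with the divided SS group, 4 were higher (Edn1, Fxyd5, Wnk4 and Cav1), a share near the 29.8% of all genes that passed. Scnn1a, the alpha subunit of the epithelial sodium channel, passed in none of the 4 genotype comparisons. It passed between 2am and 2pm in labelled SSPer1-/- on normal salt (0.86 ± 0.16, limma adjusted p = 0.00518; SS 0.23 ± 0.16, limma adjusted p = 0.286), without an interaction that passed (0.63 ± 0.23, limma adjusted p = 0.115). It also passed in the genotype by diet interaction at 2pm (0.84 ± 0.26, limma adjusted p = 0.0193), which uses the divided SS group, and in the time by diet interaction in labelled SSPer1-/- (-1.13 ± 0.27, limma adjusted p = 0.0216). The genotype by time interaction of Fxyd5 on normal salt was 0.82 ± 0.18 (limma adjusted p = 0.0217), with time differences of 0.10 ± 0.13 in labelled SSPer1-/- and -0.72 ± 0.13 in SS.

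The nearest genes on either side of each Period gene were also followed. Hes6, 3731 bases from Per2 and encoding a relative of the HES repressors, was lower at 2am than at 2pm in SS on normal salt (-1.15 ± 0.11, limma adjusted p = 2.45e-07), a direction opposite to that of Per2. It was also lower in labelled SSPer1-/- than in SS at 2pm on normal salt (-0.61 ± 0.11, limma adjusted p = 0.0114) and on high salt (-0.79 ± 0.16, limma adjusted p = 0.00119). Between 2am and 2pm it also passed in labelled SSPer1-/- on normal salt (-0.42 ± 0.11, limma adjusted p = 0.0476) and in SS on high salt (-0.57 ± 0.16, limma adjusted p = 0.0391), and its genotype by time interaction on normal salt was 0.73 ± 0.16 (limma adjusted p = 0.0181). Vamp3, 2745 bases from Per3 and encoding a vesicle fusion protein, was lower at 2am in SS on normal salt (-0.23 ± 0.05, limma adjusted p = 0.00206) and on high salt (-0.23 ± 0.07, limma adjusted p = 0.0474). The high salt values of Hes6 and Vamp3 use the divided SS 2pm group. Between the times, 26.3% of all genes passed in SS on normal salt, 5.44% in SS on high salt and 3.11% in labelled SSPer1-/- on normal salt. Between genotypes at 2pm 0.372% passed on normal salt and 29.8% on high salt, and 2.81% passed in the interaction on normal salt. Vamp2, 7600 bases from Per1, and Hes7 on the other side, passed in no contrast, and neither did Traf3ip1 beside Per2. Uts2, 2863 bases from Per3, did not pass the filter on low values.

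Depth was 24.0 to 41.6 M recovered fragments per library on normal salt and 15.3 to 27.6 M on high salt. Markers of the labelled tissue were present in every library, with 1310 to 4670 FPKM summed over 7 proximal tubule genes and 12.5 to 151 over 3 podocyte genes. Adrenal cortex markers (2 of 3 found) summed to 1.57 FPKM at most. In labelled SSPer1-/- normal salt 2pm the fat markers (4 of 4 found) summed to 15.8 to 250 FPKM. The erythroid markers (2 of 2 found) summed to 6.44 to 131 FPKM in that group. The highest sums in any other group were 76.7 FPKM for fat and 73.8 for erythroid markers. The part of these markers in the Period gene results was not tested. SS normal salt 2pm replicate 5 was low in distal convoluted tubule (18.8 FPKM) and podocyte markers (26.9 FPKM), and held 9.94 FPKM of Per2 and 6.88 of Per3.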

How the data were processed

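Per the labels, poly(A) RNA of kidney cortex was sequenced. The authors deposited FPKM for every gene, 1 table per diet, with gene length as another column. Per the submitters' processing notes, the tools were featureCounts 1.5.0-p3, HISAT2 2.0.5, fastp and StringTie 1.3.3b; their roles and the genome build are not given in the sources used here, nor is whether counting used strand. FPKM times gene length gave whole multiples of 1 step per library for 100% of values within 0.01 fragments, which recovers fragments and depth (24.0 to 41.6 M on normal salt, 15.3 to 27.6 M on high salt). All 43 libraries were used, and 0 columns lacked a sample. A second sheet and emptied lines of the high salt table were not analysed here. No 2 libraries of a group were copies of each other (lowest chi-square per gene 9.69).

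The filter asked for 1 FPKM or more in at least 5 libraries, which 13436 genes met on normal salt, 14899 on high salt and 14102 in the joint fit. limma 3.58.1 in R 4.3.3 was fitted to log2(FPKM + 1), with 1 mean per group and an intensity trend, for each table, and for both tables together only for interactions with diet. A fold on this scale understates the change of low genes. P-values are two-sided and Benjamini-Hochberg adjusted over all genes tested; 0.05 is the threshold. The fit was tested on simulated data. Correlations used 100000 permutations within groups. The members and lists were chosen with earlier results of these data known.

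Named genes were the 3 members, the 3 genes most like each by each measure of likeness, the flanking genes and up to 6 clock genes per contrast with the smallest p. Some others from the lists, and cell type markers, are named with their counts. Alternatives were a pseudocount of 0.1, no filter, median-ratio rescaling, the replicate number as a block, a fit of only the groups compared, voom, the library number series as covariate and alone, separate fits per table, and each library left out in turn. Equal replicate numbers did not mark pairs: over 33 pairs of same-numbered libraries on normal salt the deviations of all genes correlated at 0.02 on average (-0.53 to 0.61), and over 30 pairs on high salt at 0.03.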

Additional observations from a re-analysis of the deposited data

Results flagged for a closer look

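Of 24 checks of a group's extreme library, 1 met the criterion, and chance alone meets it in about 1 of 20 groups. The SS high salt 2am library with the lowest Per2, replicate 2, held 16.7 FPKM, and the other 4 libraries held 21.1 to 22.3. The same library had the lowest Per3 of its group (1.79 FPKM) and the highest Per1 (11.3 FPKM).

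The difference of Per3 between 2am and 2pm differed between genotypes on normal salt, with an interaction of 1.32 (log2, limma adjusted p = 0.00021). The time difference was -0.17 in labelled SSPer1-/- and -1.49 in SS.

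The genotype difference of Per3 at 2pm differed between diets, with an interaction of 1.06 (log2, limma adjusted p = 0.0341). It includes the SS high salt 2pm group, whose libraries are divided by number series. The value was -0.21 (limma adjusted p = 0.481) with the leading-zero libraries of that group alone, a set chosen after seeing the data.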

How the results depend on the processing

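Differences below are log2 values, and p-values are limma's, Benjamini-Hochberg adjusted. Of the results on normal salt, the Per2 and Per3 time differences in SS, the Per3 interaction with time and the Per3 genotype difference at 2am kept their direction and call under all alternatives run. With the replicate block, Per2 2am minus 2pm in labelled SSPer1-/- on normal salt no longer passed (0.47, adjusted p = 0.0705) and the same difference in SS on high salt did (1.34, adjusted p = 0.0482), as it did with voom (1.51, adjusted p = 0.0481). The block changed no other call. Fitting only the groups compared made Per2 (-0.64) and Per3 (0.81) pass between genotypes at high salt 2am, and ended the call of the Per3 genotype by diet interaction at 2pm (1.06, adjusted p = 0.151), as did no filter (1.06, adjusted p = 0.0581). The Per3 interaction on high salt, 0.03, was -0.01 with a pseudocount of 0.1 and with voom. Chosen after seeing the data were the 2 sets of SS high salt 2pm libraries. With the leading-zero set alone, the genotype difference at high salt 2pm was -0.14 for Per1, -0.89 for Per2 and -0.48 for Per3; the time difference in SS -0.09 for Per2 and -1.7 for Per3; the genotype by time interaction 0.25 for Per2 and 1.29 for Per3; the genotype by diet interaction -0.87 and -0.21; and the time by diet interaction -0.77 and -0.21. With the other set alone, in the same order, the values were 1.5 for Per2 and 1.62 for Per3 between genotypes, 2.3 and 0.4 between times, -0.17 for Per1, -2.14 for Per2 and -0.81 for Per3 in genotype by time, 1.52 for Per2 in genotype by diet, and 0.07, 1.62 and 1.89 for Per1, Per2 and Per3 in time by diet. Each number series alone gave -0.9 and 1.51 for Per2 and -0.53 and 1.7 for Per3 between genotypes. Over all 43 libraries the deviations had r of 0.38 for Per1 and Per2 (permutation p = 0.00964, adjusted p = 0.0145), 0.29 for Per1 and Per3 (0.127) and 0.95 for Per2 and Per3 (1e-05, the smallest the permutations can give), and 0.40, 0.31 and 0.74 without the 2 farthest libraries. Per1 and Per2 had 0.44 on high salt alone and 0.08 without its SS 2pm group, chosen after seeing the data, where Per1 and Per3 had -0.02. The causes of these changes were not tested.

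Leaving out 1 library at a time gave these ranges. The genotype difference at normal salt 2pm was -0.27 to 0 for Per1 and -0.09 to 0.08 for Per2. The Per1 interaction of genotype and time was -0.16 to 0.12 on normal salt and -0.08 to 0.22 on high salt, and that of Per3 -0.32 to 0.29 on high salt. Per2 2am minus 2pm was 0.44 to 0.51 in labelled SSPer1-/- on normal salt and 1.04 to 1.72 in SS on high salt. Per3 between genotypes at high salt 2pm was 0.52 to 1.13, its genotype by diet interaction at 2pm 0.8 to 1.41 and its time by diet interaction in SS 0.79 to 1.4. The Per1 time by diet interaction in labelled SSPer1-/- was -0.27 to 0.06, and r of Per1 and Per2 over all libraries 0.26 to 0.44. Each Period gene had at least 105 fragments in every library.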
